A study of Sus scrofa with 6 samples.

Results

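The annexins and S100 proteins described here are 10 calcium-binding genes, ANXA1 to ANXA6, S100A4, S100A6, S100A10 and S100A11, picked by name. Of these, 9 have a row in the deposited table of 18007 pig genes, and ANXA3 was not analysed here. The table holds RNA-seq levels of 3 porcine embryonic fibroblast lines (PEF5, PEF7, PEF8) and of the 3 induced pluripotent stem cell lines made from them (piPSC5, piPSC7, piPSC8), with 1 library per line. The comparison asks which genes changed when fibroblasts were reprogrammed. All lines are of 1 cross, a Large White boar (Longwhite in the labels) with a Meishan sow, and the fibroblasts came from ear tips at embryonic day 90. The piPSC groups additionally carry OCT4, SOX2, KLF4 and c-MYC on a lentivirus that is active only with doxycycline, together with the M2rtTA activator. Colonies were picked and grown in LF2i medium on mouse feeder cells, so each piPSC line stands for the colonies that were expanded. The level of each gene is given as FPKM, fragments scaled to the length of the gene model and to the library's total.

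Annexins are proteins that bind acidic phospholipids when calcium rises, and they act in vesicle traffic, membrane organisation and the resealing of torn plasma membrane. S100 proteins are small EF-hand proteins that form dimers and, on binding calcium, or without it in the case of S100A10, dock onto partner proteins. The families meet in fixed complexes: S100A10 joins ANXA2 in a heterotetramer at the plasma membrane, and S100A11 binds ANXA1. In fibroblasts they are abundant, and S100A4 is also known as fibroblast-specific protein.

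The libraries held between 11010629 and 17836510 fragments. All 10 fibroblast markers examined, among them COL1A1, THY1 and PDGFRA, fell, and their summed level was 4584 to 6364 FPKM in the PEF libraries and 131 to 226 FPKM in the piPSC libraries. The 8 pluripotent cell markers with a row summed to 0.0703 to 0.202 FPKM in PEFs and 3.12 to 9.24 FPKM in piPSCs. Most of the piPSC sum came from SOX2, at 3.01, 2.49 and 0.129 FPKM in piPSC5, piPSC7 and piPSC8, and LIN28B, at 2.51, 0.281 and 8.9 FPKM. Neither had an adjusted p under 0.05 by limma (0.0626 and 0.0667). SALL4, ESRRB, EPCAM and CDH1 did not exceed 0.117 FPKM in any library, and EPCAM was lower in every piPSC library than in any PEF library. Endogenous POU5F1 and NANOG did not exceed 0.155 FPKM in any piPSC library. Keratinocyte markers summed to 3.04 to 3.35 FPKM in PEFs and 4.74 to 9.12 FPKM in piPSCs. Most of each sum was KRT10, at 2.77 to 3.13 FPKM in PEFs and 4.52 to 5.24 FPKM in piPSCs. TP63 and DSG3 were at or near 0 in all libraries, and KRT5 was at 0.806 FPKM in piPSC7 and at most 0.0313 FPKM elsewhere. The paper describes the lines as male, but DDX3Y, on chromosome Y, had 3439 fragments in PEF8, 4207 in piPSC8 and 0 in the other 4 libraries. In bulk RNA, fewer cells of a type and less RNA per cell cannot be told apart, and fragments from the feeder cells were not told apart from those of the pig cells.

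On the pig genome build Sscrofa11.1 the annexin rows are scattered, with ANXA1 and ANXA2 on chromosome 1 and ANXA4, ANXA5 and ANXA6 on chromosomes 3, 8 and 16. The S100 rows all lie on chromosome 4, where S100A4 (ENSSSCG00000006578, 96088028 to 96091249) and S100A6 (ENSSSCG00000021084, 96098189 to 96100128) lie close together with S100A5 between them, and S100A11 (ENSSSCG00000006610, 97233428 to 97241989) and S100A10 (ENSSSCG00000006612, 97261199 to 97275019) lie further along. S100A4 and S100A6, a pair of nearby genes, fell strongly, and the annexin ANXA5 also fell. The upstream sequences of these 3 genes are shown because, among those read for the chosen genes with a row, only theirs extended outside the deposited row. Each runs 5′ to 3′ on the plus strand and ends before both the RefSeq gene start and the start of the deposited row, and capitals mark CpG dinucleotides, the sites of DNA methylation.
S100A4, chr4:96087802-96088027: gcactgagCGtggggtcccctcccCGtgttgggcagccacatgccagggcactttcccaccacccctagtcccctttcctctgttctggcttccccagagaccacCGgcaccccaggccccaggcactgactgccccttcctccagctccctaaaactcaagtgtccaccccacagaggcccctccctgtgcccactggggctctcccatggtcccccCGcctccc
S100A6, chr4:96097964-96098188: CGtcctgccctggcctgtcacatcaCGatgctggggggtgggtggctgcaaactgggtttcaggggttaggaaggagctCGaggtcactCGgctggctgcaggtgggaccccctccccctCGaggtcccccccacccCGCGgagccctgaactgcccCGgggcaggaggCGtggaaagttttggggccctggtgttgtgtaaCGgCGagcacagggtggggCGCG
ANXA5, chr8:102387533-102387827: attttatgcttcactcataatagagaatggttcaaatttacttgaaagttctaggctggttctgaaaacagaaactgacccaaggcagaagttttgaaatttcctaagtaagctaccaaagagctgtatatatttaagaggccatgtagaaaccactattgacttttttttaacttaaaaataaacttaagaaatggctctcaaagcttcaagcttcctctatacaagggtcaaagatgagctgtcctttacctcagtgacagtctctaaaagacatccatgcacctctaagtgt
In the full 300 bases before the RefSeq start, S100A4 had 9 CpGs, S100A6 had 23 and ANXA5 had 0, against a median of 13 over the 19567 promoters read in the same way. The genes that fell therefore lay on both sides of that median, with 34 CpGs for ANXA2, 28 for S100A11 and 2 for ANXA1. The windows of ANXA2, S100A11 and ANXA1 lie inside their deposited rows, so these counts are not upstream of the gene models that were measured.

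The same 300 bases of 9 of the 10 genes, ANXA3 among them, were searched on both strands for letters bound by factors active in fibroblasts. The AP-1 site TGAGTCA (or TGACTCA) was found in 2 of the 9 genes and in 3.42% of all promoters. The TEAD letters GGAATG were found in 1 of 9 and in 12.5%, and the RUNX letters TGTGGTT in 0 of 9 and in 4.14%. The stretches with a match are shown with the matching letters in capitals, 27 bases (AP-1) and 200 bases (TEAD) before the RefSeq start of ANXA4 and 99 bases before that of S100A11. Both windows lie inside the deposited gene rows, that of ANXA4 well within its row, so these matches are not upstream of the gene models that were measured. No matched letters overlap each other.
ANXA4 AP-1, chr3:72654600-72654629, minus strand: gcaggggcctaTGAGTCAcctctttctctg
ANXA4 TEAD, chr3:72654774-72654803, minus strand: ccatcctctgttGGAATGtttgtttattgg
S100A11 AP-1, chr4:97233723-97233752, plus strand: gagggggcgcgTGAGTCAggcgggagccgc
Of these genes, S100A11 fell and ANXA4 was not called, as described next.

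Reprogramming was accompanied by a loss of most of these transcripts. Of the 9 genes, all of which passed the filter on low values, 6 fell (ANXA1, ANXA2, ANXA5, S100A4, S100A6 and S100A11), 0 rose, and 3 (ANXA4, ANXA6 and S100A10) were not called. A gene was called at an adjusted p under 0.05 by limma and a change of at least 2-fold; over all 12428 genes tested, 36.8% were called, 16.7% lower and 20.2% higher in piPSCs. The median log2 fold change of the 9 genes was -2.52, and that of all genes tested was 0.20. The summed level of the 9 genes was 2281, 2525 and 3892 FPKM in PEF5, PEF7 and PEF8, and 382, 640 and 410 FPKM in piPSC5, piPSC7 and piPSC8. As sums, the S100 genes lost more of it than the annexins: 4 S100 genes went from 1793 ± 777 to 136 ± 107 FPKM and 5 annexins from 1106 ± 98.9 to 341 ± 61.7 FPKM (mean ± SD, n = 3), a difference between families that was not tested. By mean, S100A6 and S100A4 held most of the S100 sum in PEFs, at 982 and 716 FPKM. ANXA6 held most of the annexin sum in piPSCs, at 209 FPKM. In 6 of the 9 genes every piPSC value lay below every PEF value, as it did in 26.8% of all genes tested.

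**Figure D1:**
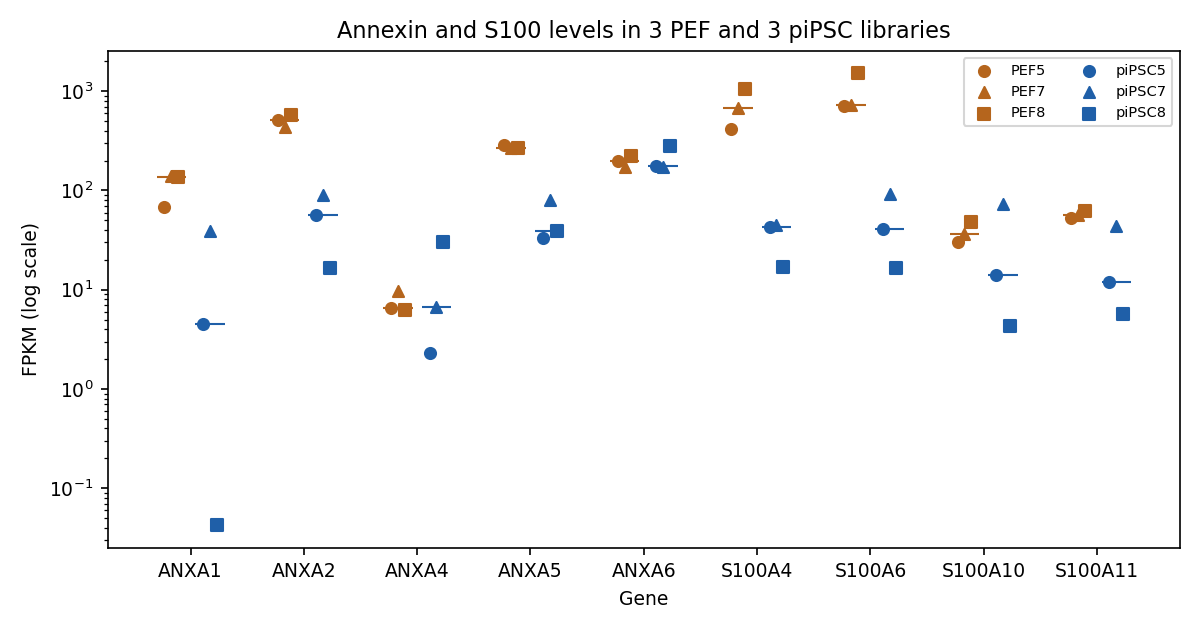
FPKM of 9 annexin and S100 genes on a log axis, with brown points for the 3 PEF libraries, blue points for the 3 piPSC libraries, one marker shape per line and short bars at group medians. Blue points lie below all brown points for ANXA1, ANXA2, ANXA5, S100A4, S100A6 and S100A11, while the groups overlap for ANXA4, ANXA6 and S100A10, and ANXA1 in piPSC8 is the lowest point at 0.0424 FPKM.

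Among the annexins, ANXA2 was the most abundant in fibroblasts. It is the plasma membrane annexin that carries S100A10 and binds actin. ANXA2 (ENSSSCG00000004578) stood at 509, 440 and 580 FPKM in PEF5, PEF7 and PEF8, and at 56.4, 89.2 and 16.7 FPKM in piPSC5, piPSC7 and piPSC8. The groups did not overlap, and piPSC8 was lowest. ANXA2 fell by 3.49 ± 0.56 on the log2 scale of FPKM + 1 (± SE, n = 3 per group), an 11.2-fold change, with an adjusted p of 0.00314 by limma.

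ANXA5, the annexin used as a probe for phosphatidylserine on dying cells, was the steadiest of the genes in fibroblasts. ANXA5 (ENSSSCG00000009097) measured 288, 268 and 269 FPKM in the PEF libraries and 33.1, 80.1 and 39.5 FPKM in piPSC5, piPSC7 and piPSC8. All piPSC values were below all PEF values, with piPSC7 the highest of them. ANXA5 fell by 2.52 ± 0.32 (limma adjusted p = 0.00135), a 5.73-fold change.

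ANXA1, which limits inflammation through formyl peptide receptors and binds S100A11, had the widest spread. ANXA1 (ENSSSCG00000005267) was at 67.5, 139 and 137 FPKM in PEF5, PEF7 and PEF8, and at 4.49, 39.1 and 0.0424 FPKM in piPSC5, piPSC7 and piPSC8. The groups did not overlap, and the piPSC lines ranged from a moderate level in piPSC7 to almost none in piPSC8. The lowest value rests on 2 fragments in piPSC8 against 8924 in PEF8, a ratio of 3244 for that line with a 95% exact counting interval of 898 to 26790. ANXA1 fell by 4.17 ± 1.22 (limma adjusted p = 0.0275). The adjusted p was 0.056, 0.0805 and 0.0785 without PEF5, PEF7 or PEF8 and 0.0775 without piPSC5, none of them under the threshold. Its log2 fold change was -2.89 without piPSC8 (adjusted p = 0.0379) and -5.52 without piPSC7 (adjusted p = 0.00438). With a pseudocount of 0.1 the adjusted p was 0.0547, and with no filter on low values 0.0519.

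Of the 5 annexins chosen, ANXA6 and ANXA4 were not called. ANXA6, the large annexin with a duplicated core that acts in endosome and cholesterol traffic, was listed at 200, 171 and 225 FPKM in PEF5, PEF7 and PEF8, and at 175, 172 and 280 FPKM in piPSC5, piPSC7 and piPSC8. The groups overlapped, and only piPSC8 exceeded the PEF values. Its log2 fold change of 0.04 had a 95% confidence interval from -0.52 to 0.60 and an adjusted p of 0.89 by limma, and its sign was negative after scaling by median ratios or equal sums. With the fall of the others, ANXA6 made up 16.6% to 18.7% of the summed FPKM of the 5 annexins in PEFs and 64.5%, 44.4% and 76.4% in piPSC5, piPSC7 and piPSC8.

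ANXA4, an annexin best known from epithelial cells, was the least abundant of the genes in PEFs. ANXA4 measured 6.6, 9.8 and 6.18 FPKM in PEF5, PEF7 and PEF8, and 2.32, 6.7 and 30.3 FPKM in piPSC5, piPSC7 and piPSC8. Of the piPSC lines, piPSC5 lay below all PEF values, piPSC7 within their range and piPSC8 above it. The log2 fold change was 0.15 with a 95% confidence interval from -1.67 to 1.97 (limma adjusted p = 0.881), it was -0.73 without piPSC8, and it was negative after either scaling and in the fit on fragments.

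S100A6 and S100A4 had the largest falls of the 9 genes on log2(FPKM + 1), although ANXA1 passed both with a pseudocount of 0.1, with equal-sum scaling, in the fit on fragments and without piPSC7. S100A6, also called calcyclin, a protein of proliferating fibroblasts that binds annexins and the ubiquitin ligase adaptor CACYBP, was the most abundant gene of the set in PEFs. S100A6 was at 708, 722 and 1515 FPKM in PEF5, PEF7 and PEF8, and at 41.1, 92.4 and 16.5 FPKM in piPSC5, piPSC7 and piPSC8. The highest piPSC value was several-fold under the lowest PEF value, and line 8 held both the highest PEF and the lowest piPSC value. S100A6 fell by 4.49 ± 0.62, a 22.4-fold change (limma adjusted p = 0.00184).

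S100A4, which binds non-muscle myosin IIA (MYH9) and is tied to cell motility, followed closely. S100A4 stood at 417, 681 and 1049 FPKM in PEF5, PEF7 and PEF8, and at 43.1, 45 and 16.8 FPKM in piPSC5, piPSC7 and piPSC8. Again the groups were far apart and line 8 held both extremes. S100A4 fell by 4.34 ± 0.47, a 20.2-fold change (limma adjusted p = 0.000831). Without piPSC8 the log2 fold change was -3.89 for S100A4 and -3.87 for S100A6, and both passed the threshold without any 1 library.

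S100A11, the ANXA1 partner, had a smaller change. S100A11 measured 53.2, 56.5 and 62.4 FPKM in PEF5, PEF7 and PEF8, and 12, 43.7 and 5.7 FPKM in piPSC5, piPSC7 and piPSC8. The groups did not overlap, but piPSC7 came close to PEF5. S100A11 fell by 1.89 ± 0.64, a 3.7-fold change (limma adjusted p = 0.0447). With the cell line as a replicate block, the adjusted p was 0.0512, and with no filter on low values 0.0777. The call was also lost without PEF5, PEF7, PEF8, piPSC5 or piPSC8, with adjusted p between 0.0874 and 0.122, while without piPSC7 the log2 fold change was -2.64 (adjusted p = 0.003) and without piPSC8 it was -1.27.

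S100A10, the ANXA2 partner also named p11, was not called. S100A10 was at 30, 36.1 and 47.8 FPKM in PEF5, PEF7 and PEF8, and at 14, 72.5 and 4.29 FPKM in piPSC5, piPSC7 and piPSC8. The level in piPSC7 was above every PEF value, and the levels in piPSC5 and piPSC8 were below them all. The log2 fold change of -1.09 had a 95% confidence interval from -3.19 to 1.01 (limma adjusted p = 0.328). Without piPSC7 it was -2.10 with an adjusted p of 0.0177, and without piPSC8 it was -0.21 with an adjusted p of 0.813.

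**Figure D2:**
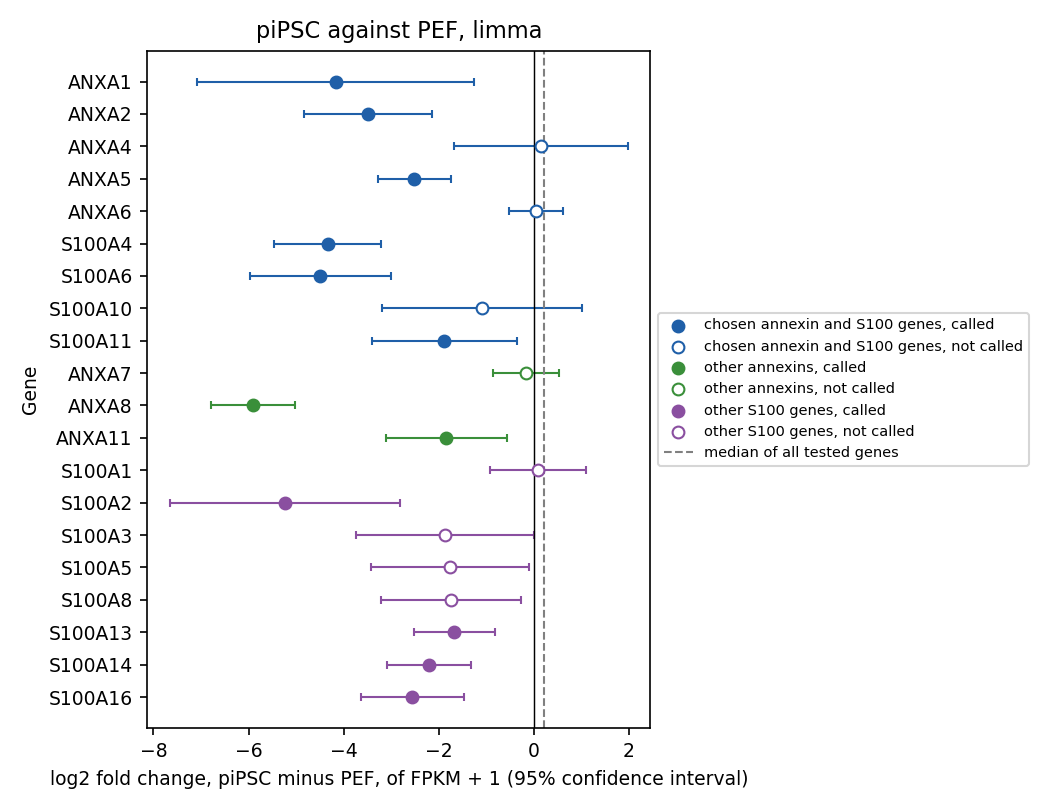
Log2 fold changes of FPKM + 1, piPSC minus PEF, with 95% confidence intervals from limma for 9 chosen annexin and S100 genes (blue), 3 other annexins (green) and 8 other S100 genes (purple). Filled points were called, the dashed line is the median of all tested genes at 0.20, and ANXA4, ANXA6, ANXA7 and S100A1 lie near it.

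FPKM is per length of the gene model, so the order of levels within each group depends on those lengths. In PEFs the order by mean was S100A6, S100A4, ANXA2, ANXA5, ANXA6, ANXA1, S100A11, S100A10 and ANXA4, and the ranges over libraries overlapped only between S100A6 and S100A4 and between S100A4 and ANXA2. In piPSCs ANXA6 stood first at 209 ± 61.6 FPKM (SD, n = 3), with its range apart from the next gene, ANXA2, at 54.1 ± 36.3 FPKM. Below ANXA6, each gene overlapped its neighbour in the order ANXA2, ANXA5, S100A6, S100A4, S100A10, S100A11, ANXA1 and ANXA4. The levels of S100A10 and S100A11 are per gene models of 3856 and 3810 bases, as inferred from the FPKM values, against 906 bases for S100A4 and 1140 for S100A6. The places of these genes in the order therefore rest partly on the model lengths.

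Within the piPSCs, the lines took a common order in most genes. piPSC7 had the highest value in 7 of the 9 genes, all but ANXA4 and ANXA6, and piPSC8 the lowest in 6, namely ANXA1, ANXA2, S100A4, S100A6, S100A10 and S100A11. Over all genes tested, piPSC7 was highest in 34.9% and piPSC8 lowest in 42.1%. The summed fibroblast markers had another order, with 226 FPKM in piPSC5, 131 FPKM in piPSC7 and 159 FPKM in piPSC8. Summed keratinocyte markers were highest in piPSC7 at 9.12 FPKM. KRT14 was at 3.04 FPKM and KRT5 at 0.806 FPKM there, against at most 0.225 and 0.0252 FPKM in the other piPSC lines. KRT10, the largest part of each sum, differed less, at 5.09, 5.24 and 4.52 FPKM in piPSC5, piPSC7 and piPSC8. The part of these markers in the order of the lines was not tested. Set against its own PEF line on the scale of FPKM + 1, piPSC5 had 8 of the 9 genes at least 2-fold lower, piPSC7 had 5 and piPSC8 had 7, where 18.6%, 17.2% and 23.8% of all tested genes were that much lower. On that scale ANXA4 in line 8 was at least 2-fold higher, and S100A10 in line 7 was just short of it, with a log2 ratio of 0.99.

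**Figure D3:**
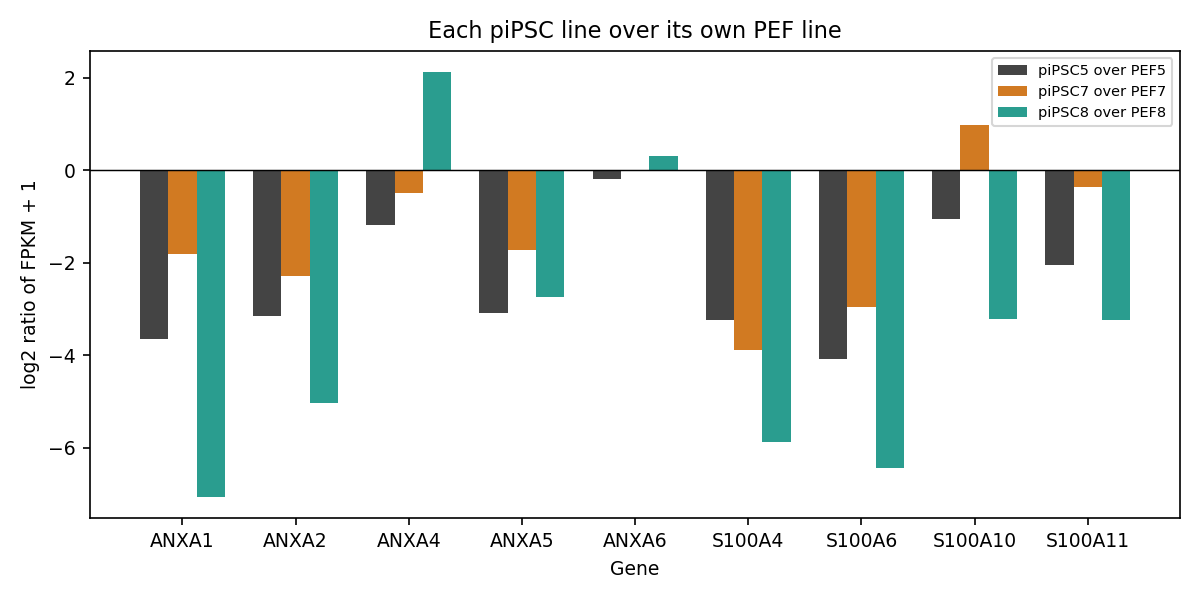
Log2 ratio of FPKM + 1 of each piPSC line over its own PEF line for 9 annexin and S100 genes, with 1 bar per line and gene. Bars point down in all lines for ANXA1, ANXA2, ANXA5, S100A4, S100A6 and S100A11, and point both ways for ANXA4, ANXA6 (by at most 0.31) and S100A10.

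The levels of the partners in the known complexes were also compared as ratios. The ratio of S100A10 to ANXA2 (FPKM + 1) was 0.0608, 0.0841 and 0.0841 in PEF5, PEF7 and PEF8, and 0.262, 0.815 and 0.298 in piPSC5, piPSC7 and piPSC8. ANXA2 thus had the higher FPKM in every library, but by less in each piPSC line than in any PEF line. The mean log2 ratio was 2.40 higher in piPSCs. The ratio of S100A11 to ANXA1 was 0.791, 0.41 and 0.458 in the PEF libraries and 2.37, 1.12 and 6.43 in piPSC5, piPSC7 and piPSC8, so that the gene with the higher value was ANXA1 in all PEFs and S100A11 in all piPSCs. The mean log2 ratio was 2.28 higher. The ratio in piPSC8 depends on the added 1, since ANXA1 there was at 0.0424 FPKM from 2 fragments. With a pseudocount of 0.1 the difference was 3.23, and without piPSC8 it was 1.62. An exact permutation test over the 6 libraries gave p = 0.1 for each ratio, two-sided, and an adjusted p of 0.1 over both, which is the smallest p this design allows, so neither passed 0.05. The size of each ratio, and which partner has the higher value, depend on the gene-model lengths, so the ratios do not show which partner is in excess.

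**Figure D4:**
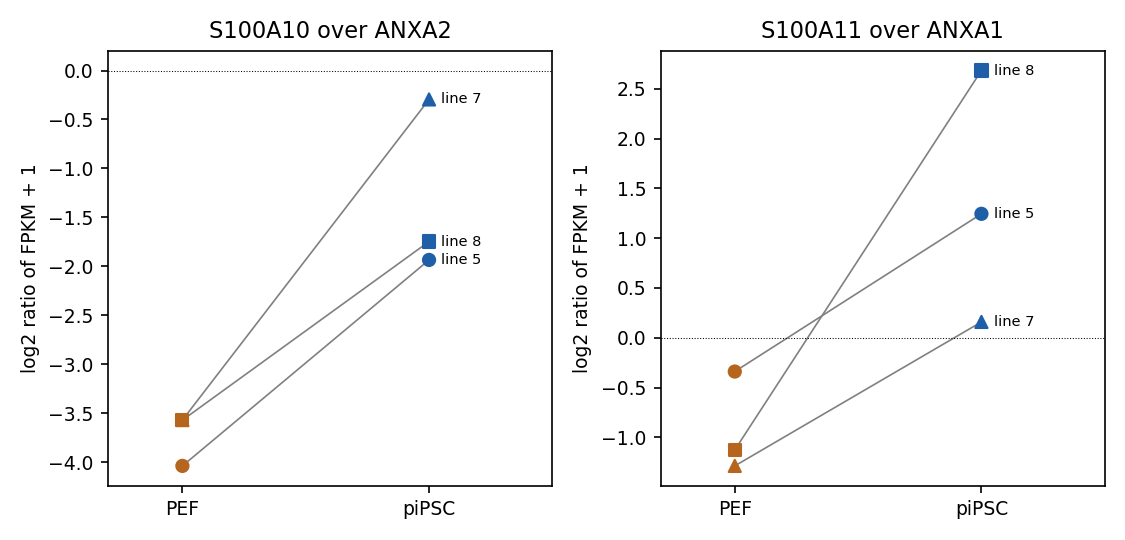
Log2 ratio of FPKM + 1 of S100A10 over ANXA2 (left) and of S100A11 over ANXA1 (right) in each library, with a grey line joining the PEF and piPSC library of the same line. Both ratios are higher in piPSCs in all 3 lines, and S100A11 over ANXA1 crosses 0, the dotted line, in each.

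Of 5 other annexins with a row, 3 passed the filter, 2 fell and 0 rose. ANXA8, an annexin of late endosomes, gave the largest fall of the 20 annexin and S100 genes tested. It was at 136, 156 and 62 FPKM in PEF5, PEF7 and PEF8 and at 0.619, 1.31 and 0.658 FPKM in piPSC5, piPSC7 and piPSC8, so the groups were far apart, and it fell by 5.91 ± 0.37 (limma adjusted p = 0.000196). ANXA11, which tethers RNA granules to lysosomes, fell by 1.84 (adjusted p = 0.0271); it was called in the full set, and leaving out PEF5, PEF7, PEF8 or piPSC5 left 1 call in this list, ANXA8. ANXA7, the synexin of secretory granules, was at 85.2 ± 8.42 FPKM in PEFs and 80.1 ± 34 FPKM in piPSCs (SD, n = 3) and was not called (log2 fold change -0.16, 95% confidence interval -0.85 to 0.53, limma adjusted p = 0.66). ANXA9 and ANXA13 stayed under the filter, at no more than 0.367 FPKM in any library.

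Of 11 other S100 genes with a row, 8 passed the filter, 4 fell (S100A2, S100A13, S100A14 and S100A16) and 0 rose, with a median log2 fold change of -1.82. S100A2, an S100 protein found in the nucleus, neighbours S100A4 and S100A6 on chromosome 4 and was the most abundant of this list. S100A2 was at 973, 868 and 210 FPKM in PEF5, PEF7 and PEF8 and at 17.7, 47.7 and 2.73 FPKM in piPSC5, piPSC7 and piPSC8, and the same order of the piPSC lines appeared here as for S100A4 and S100A6. It fell by 5.23 ± 1.01 (limma adjusted p = 0.00618), and its log2 fold change was -4.22 without piPSC8. With a pseudocount of 0.1, which gives more weight to low values, 7 of these S100 genes were called. S100A8 and S100A9, the calprotectin subunits of myeloid cells, had 0 fragments in all piPSC libraries and 2 to 41 and 7 to 25 fragments in the PEF libraries. The adjusted p of S100A8 by limma was 0.0516, so it was not called. The 5 leukocyte markers with a row summed to 10.9 to 23.7 FPKM in PEFs and 1.08 to 3.28 FPKM in piPSCs. Most of the PEF sum was CD14, at 9.2 to 21.9 FPKM there and at most 0.239 FPKM in piPSCs, whereas CD68 was at 1.39 ± 0.791 and 1.83 ± 0.963 FPKM and CSF1R at 0.155 ± 0.0803 and 0.215 ± 0.0866 FPKM in PEFs and piPSCs (SD, n = 3). The part of these markers in the S100A8 and S100A9 values was not tested. S100A1, which overlaps CHTOP on the same strand and S100A13 on the other, was not called, and its level and that of S100A13 are uncertain for that reason.

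Binding partners and the membrane repair genes around them showed the same direction for most, with 10 of 17 tested genes lower, 1 higher and 6 not called, at a median log2 fold change of -1.79. AHNAK, the giant scaffold that the ANXA2 and S100A10 complex holds at the membrane, was at 49.7, 47.2 and 47.1 FPKM in PEF5, PEF7 and PEF8 and at 3.01, 1.44 and 0.515 FPKM in piPSC5, piPSC7 and piPSC8. AHNAK thus had nearly equal levels in the PEFs and fell by 4.32 ± 0.35 (limma adjusted p = 0.000353). CTSB, a lysosomal protease reported to bind S100A10 and ANXA2 at the cell surface, was the most abundant of the list at 494 ± 133 FPKM in PEFs and 54.9 ± 12.2 FPKM in piPSCs (SD, n = 3), and fell by 3.14 (limma adjusted p = 0.000368). The caveolar genes CAV1, CAVIN1 and EHD2 and the repair genes MYOF, CAPNS1 and CHMP4B were also among those that fell, as were PLA2G4A, whose enzyme S100A10 and annexins bind, and MYH9, the S100A4 partner. CAPNS1 and CHMP4B, with log2 fold changes of -1.12 and -1.01, were close to the 2-fold threshold. The 6 genes not called were CAPN1, CAPN2, PDCD6, PDCD6IP, DYSF and PLAT. CACYBP, the S100A6 partner, was the 1 gene that rose, from 57.1 ± 9.36 to 139 ± 2.75 FPKM (SD, n = 3), by 1.28 on the log2 scale (limma adjusted p = 0.00125), so that S100A6 and its named partner were called in opposite directions. After scaling to equal sums its log2 fold change was 0.97, under the 2-fold threshold, and 0 genes of the list were called higher.

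Among 16 other calcium-binding genes, 6 fell, 2 rose and 8 were not called, at a median log2 fold change of -0.88. The most abundant, CALR, the chaperone calreticulin that stores calcium in the endoplasmic reticulum, fell by 1.22 ± 0.21 by limma (adjusted p = 0.00377), with 684 ± 144 FPKM in PEFs and 290 ± 37.4 FPKM in piPSCs (SD, n = 3). HPCAL1, a neuronal calcium sensor relative, had the largest fall of these, and its log2 fold change was -3.03 with an SE of 0.28 (adjusted p = 0.000503 by limma). The largest rise was that of GCA, grancalcin, a penta-EF-hand protein, which went from 2.08 ± 0.612 to 13.7 ± 1.9 FPKM (SD, n = 3) a rise of 2.27 on the log2 scale (limma adjusted p = 0.000636). The calmodulin genes CALM2 and CALM3 were not called and had log2 fold changes of -0.14 and -0.03. With equal-sum scaling, 10 of the 16 were called lower.

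The 5 named genes outside these lists with the profile most like that of ANXA2 over the 6 libraries, by the distance between centred log2(FPKM + 1) values, were DDAH2 (distance 0.487), SWAP70 (0.608), ATP2B4 (0.662), DUSP22 (0.691) and P2RY2 (0.711). Their log2 fold changes ran from -3.69 for DDAH2 to -3.15 for SWAP70, beside -3.49 for ANXA2, a closeness that follows from how they were chosen. ATP2B4 is a calcium pump of the plasma membrane, and P2RY2 is a nucleotide receptor that releases calcium from stores. ATP2B4 went from 39.6 FPKM on average in PEFs to 3.40 FPKM in piPSCs, and P2RY2 from 27.8 to 1.67 FPKM. DDAH2, SWAP70 and DUSP22 went from 55.5, 29.9 and 22.9 FPKM to 4.06, 3.63 and 2.49 FPKM.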

How the data were processed

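RNA of 6 libraries was sequenced as paired reads of 150 bp after poly-A selection with a kit that does not mark strand. The authors deposited FPKM values per gene, and the submitters' processing notes name HISAT2 2.1.0, HTSeq 0.6.0 and Bowtie2 2.2.3 and the build Sscrofa11.1, without saying how shared reads were counted. Of 13187 symbols compared, 99.9% overlapped their RefSeq position on that build. Rows of listed genes without a usable symbol were named by position (7 rows). The table lists 3375 of 18007 genes by identifier only. RefSeq on Sscrofa11.1 gave the upstream sequences, of which that of 1 gene is not reported here.

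Values of all genes were whole multiples of 1 fragment (within 0.001), which gave fragments, totals and gene-model lengths. Limma 3.58.1 in R 4.3.3 (lmFit, eBayes with a trend) was run on log2(FPKM + 1). The 12428 genes whose mean FPKM reached 0.5 were tested two-sided, and p-values were adjusted over all of them by the method of Benjamini and Hochberg; a fold change on this scale understates that of low genes. The fit was also run on simulated fragments, with independent libraries and the same spread for every gene, so that run does not give error rates for these lines. Other values were computed in Python 3.11.15 with scipy 1.17.1. Libraries come from single cultures of 3 lines, and p-values measure the spread between these lines. Confidence intervals from limma rest on that spread too, while the exact counting interval given for ANXA1 covers counting error only.

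The piPSC lines derive from the same-numbered PEF lines, so the numbers pair the libraries; deviations from group means correlated at 0.0921, 0.0946 and 0.08 within lines and at between -0.121 and 0.0553 across them. The main fit was unpaired, after the unpaired test in the paper's general statistics, although the paper set each piPSC line beside its own PEF line. The genes and lists were chosen with earlier results of these data known. Named genes are all 10 genes, from each further list the called genes with the largest rise and fall and the most abundant gene, and the 5 genes nearest to ANXA2; other genes were named after their values were seen. Markers of cartilage and endothelial cells, at no more than 4.56 and 2.59 FPKM summed in any library, and of leukocytes, at no more than 23.7 FPKM, were also read. As alternatives, the line was fitted as a replicate block, the pseudocount was set to 0.1, and the rest were no filter or a mean of at least 1 FPKM, scaling by median ratios or to equal sums, no trend, voom on the fragments, and each library left out in turn.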

Additional observations from a re-analysis of the deposited data

Results flagged for a closer look

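Among the 9 genes and those named by rule from the further lists, 4 had piPSC lines that moved in opposite directions from their own PEF lines, on the log2 scale of FPKM + 1. Each line has 1 pair of libraries, so the difference between lines was not tested. ANXA4 was 2.13 higher in line 8, with log2 ratios of -1.19 in line 5 and -0.49 in line 7. S100A10 was 0.99 higher in line 7, with log2 ratios of -1.05 in line 5 and -3.21 in line 8. ANXA7 had log2 ratios of 0.38 in line 7, -0.18 in line 5 and -0.68 in line 8. ANXA6 had log2 ratios of 0.31 in line 8, 0.01 in line 7 and -0.20 in line 5, the smallest range of these genes.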

How the results depend on the processing

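ANXA2, ANXA5, S100A4 and S100A6 were called lower under all 14 alternatives, with log2 fold changes from -5.08 to -2.27. The number of the 9 genes called lower was 6, and ranged from 4 to 7 without 1 library, with 4 when no filter was applied and 5 with a pseudocount of 0.1. With the replicate block it was 5, since S100A11 lost its call (adjusted p = 0.0512), and the block changed no other call among the 9 genes. No gene of the 9 was called higher under any alternative. Over all genes, 2505 were higher and 2070 lower; median-ratio scaling gave 1879 and 2511 and moved the median log2 fold change from 0.20 to -0.01, and equal-sum scaling gave 1986 and 2815 (median -0.06). Reversed signs, none of them called, were those of ANXA4 (-0.077 with median-ratio scaling, -0.19 with equal sums, -0.053 with voom, and -0.73 to 0.89 without 1 library), ANXA6 (-0.23 with median ratios, -0.28 with equal sums, and -0.19 to 0.16 without 1 library) and ANXA7 (-0.48 to 0.066 without 1 library). Without 1 library, other annexins called lower numbered 1 to 2, and repair genes called higher 1 to 2. Other S100 genes called lower numbered 7 with a pseudocount of 0.1, repair genes called higher 0 with equal sums, and other calcium-binding genes called lower 10 with equal sums. The cause of these differences was not tested. The mean log2 ratio differences of the partner pairs stayed positive, at 1.89 to 2.71 for S100A10 to ANXA2 and 1.62 to 2.88 for S100A11 to ANXA1 without 1 library, and the latter was 3.23 with a pseudocount of 0.1. The replicate block, an exact sign-flip test over 3 pairs, gave p = 0.25, the smallest it allows. Depth limits ANXA1 in piPSC8, which rests on 2 fragments.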

Other observations

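DYSF, dysferlin, a membrane repair protein of muscle, was picked from the list because of its values. Its level was 0.567, 0.199 and 1.06 FPKM in PEF5, PEF7 and PEF8, and 2.78, 32.7 and 0.0656 FPKM in piPSC5, piPSC7 and piPSC8. The high value rests on 2688 fragments in the library of piPSC7, the line that also had the highest S100A10, S100A11, ANXA1 and ANXA2 of the piPSCs, while piPSC8 had 5 fragments. DYSF was not called (log2 fold change 1.71, 95% confidence interval -1.06 to 4.48, limma adjusted p = 0.25). CAPN2, a calpain that cuts proteins at torn membranes, had the opposite extreme in piPSC8, at 1.85 FPKM against 40.9 and 57.7 FPKM in piPSC5 and piPSC7 and 91.4 to 103 FPKM in PEFs, and was not called (limma adjusted p = 0.107). SRI, sorcin, a penta-EF-hand protein that lowers calcium release through ryanodine receptors, rose from 27.1 ± 2.99 FPKM in PEFs to 126 ± 64.5 FPKM in piPSCs (SD, n = 3, limma adjusted p = 0.00644).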
